A study of Mus musculus with 2 samples.

Results

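Mir126a, the gene of the microRNA miR-126, was examined in small RNA libraries of embryonic mouse kidney. It was identified by its Ensembl gene identifier (ENSMUSG00000065540.1), which GENCODE release M21 pairs with the symbol Mir126a, and is 1 of the 1973 miRNA genes with a row of counts, of which 345 are called detected here, with 10 or more counts in both libraries. The series has 1 group, kidney of B6NCrl mouse embryos at 14.5 days of gestation, with 2 biological replicates of 2 kidneys each, collected on different days. The labels name no treatment, genetic change or cell sorting. They give pooled sexes yet a single pup for each sample, and 1 donor identifier for both replicates. The number of embryos behind each sample is therefore not settled, and the spread between replicates, with every SD given for n = 2, may be partly technical. Libraries covered RNA of less than 30 nucleotides and gave 5202588 sense-strand miRNA counts for replicate 1 and 3683978 for replicate 2. CPM is counts per 1000000 of these. With no second condition, Mir126a was compared with other miRNA genes, across its 2 strands and between the replicates.

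MicroRNAs are cut from hairpin precursors and lead an Argonaute protein to messenger RNAs that pair with the seed, bases 2 to 8 of the mature RNA. miR-126 is abundant in endothelial cells, the lining of blood vessels. It lies inside Egfl7, which encodes a secreted protein of the vascular matrix, and the microRNA and its host are transcribed from the same strand. In mice and zebrafish miR-126 is needed for vascular integrity. It is known to lower Spred1 and Pik3r2, which restrain signalling downstream of VEGF. In the developing kidney, endothelial cells form the capillaries of the glomerulus and the vessels around the tubules.

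The Mir126a hairpin spans 73 bases on the plus strand of chromosome 2, at chr2:26591357-26591429 (mm10, the assembly also called GRCm38). Egfl7 extends from 26580014 to 26593120 on the same strand, and 9 of its 19 annotated transcripts span the hairpin. In 8 of them the hairpin lies in an intron. In the first listed protein-coding transcript of 10 exons this is intron 7, 600 bases long, from 26591064 to 26591663. In a transcript annotated as a retained intron, the hairpin lies in exon 4. Gm20532, a gene on the same strand that overlaps Egfl7, also holds it in an intron. On the minus strand the annotation places a further miRNA gene, Mir126b, over bases 7 to 64 of the hairpin. Mir126b has no row of its own in the count tables, so reads from that strand can be seen only as opposite-strand counts of Mir126a.

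The RefSeq sequences of the locus (GRCm38.p6) are shown because the counts of the 2 strands turn on them. In both hairpins the capitals mark the listed mature RNAs, and in the mature RNAs they mark the seed. The sequences run 5′ to 3′.
Mir126a hairpin: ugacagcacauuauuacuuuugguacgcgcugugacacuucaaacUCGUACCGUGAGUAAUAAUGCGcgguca
miR-126a-3p: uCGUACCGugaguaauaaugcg
Mir126b hairpin: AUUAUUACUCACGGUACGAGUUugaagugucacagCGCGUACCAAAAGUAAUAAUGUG
miR-126b-5p: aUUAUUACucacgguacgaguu
miR-126b-3p: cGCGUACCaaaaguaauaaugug

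The 58 bases of the Mir126b hairpin are the exact reverse complement of part of the Mir126a hairpin. miR-126a-3p occupies bases 46 to 67 of the Mir126a hairpin, counted from its 5′ end, and 19 of its 22 bases lie opposite miR-126b-5p. The counts are per gene, so miR-126a-3p and miR-126a-5p, the RNAs of the 2 arms, cannot be told apart in them. None of the seeds of miR-126a-3p, miR-126b-5p and miR-126b-3p was found in any other of the 1738 mature miRNAs of the RefSeq table. That table holds no mature entry for miR-126a-5p, so the seed of miR-126a-5p was not checked. On the same strand, the longest stretch that miR-126a-3p shared with any of the other 2201 annotated miRNA hairpins was 10 bases. For the whole hairpin it was 11 bases. No other annotated miRNA gene therefore shares a stretch of 21 bases with Mir126a, whereas 67 of the 345 detected genes do share such a stretch with another. Only annotated miRNA genes were compared. Multimapping reads (28.3% of replicate 1, 27.5% of replicate 2) were not assigned to genes.

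**Figure D1:**
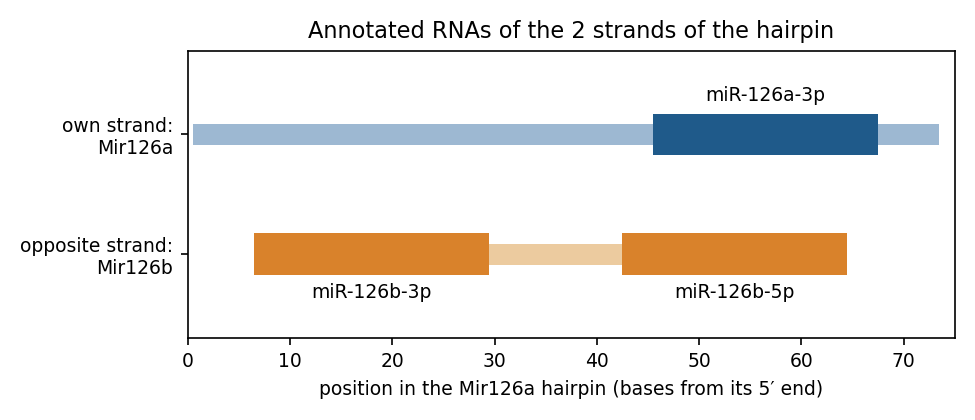
Positions of the annotated RNAs on both strands of the Mir126a hairpin, in bases from its 5′ end; thin bars are hairpins and thick bars the mature RNAs of the RefSeq table. miR-126a-3p at bases 46 to 67 lies over miR-126b-5p at bases 43 to 64, and miR-126b-3p lies at bases 7 to 29.

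Folded alone with RNAfold, the Mir126a hairpin had a minimum free energy of -31.2 kcal/mol with 27 base pairs. The Mir126b hairpin, which is shorter, had -19.3 kcal/mol with 21 base pairs. Per base this was -0.427 kcal/mol for Mir126a, close to the median of -0.434 over the hairpins of detected genes, and -0.333 kcal/mol for Mir126b. These energies are predictions from the sequence and not measurements.

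By assigned sense-strand counts Mir126a was the fourth most abundant miRNA gene of the embryonic kidney, with the same rank in both libraries. Multimapping reads were not assigned, so genes that share sequence with another may be counted too low. In number, Mir126a counts equalled 7.94% of the multimapping reads in replicate 1 and 9.45% in replicate 2. The rank and the levels that follow therefore hold for assigned counts, and differences between miRNAs in capture were not tested. Replicate 1 held 235051 Mir126a counts (45180 CPM) and replicate 2 held 175943 (47759 CPM). These made up 4.52% of sense-strand counts for replicate 1, with an exact (Clopper-Pearson) 95% interval of 4.50 to 4.54%. For replicate 2 the share was 4.78%, with an interval of 4.75 to 4.80%. The mean share was 4.65% ± 0.182 (SD, n = 2). The intervals hold counting error alone, and PCR copies are not independent molecules, so the true uncertainty is wider. Of all reads of the libraries, unmapped ones included, Mir126a took 2.25% in replicate 1 and 2.60% in replicate 2.

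Mir126a stood 423-fold ± 7.23 above the median detected gene (SD, n = 2), at 106 CPM (replicate 1) and 114 CPM (replicate 2). In either library its counts exceeded those of the 268 least abundant of the 345 detected genes together. In bulk tissue a level reflects both the number of cells of a type and the RNA per cell, and these cannot be told apart.

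**Figure D2:**
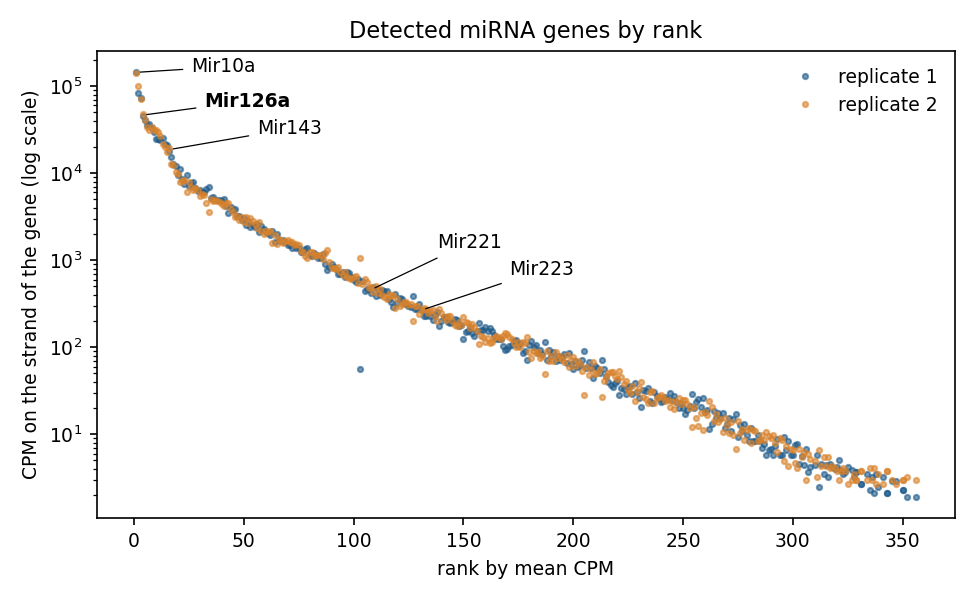
CPM of each of the 345 detected miRNA genes (log scale) against its rank by mean CPM, with 1 point for each gene and replicate. Mir126a is at rank 4 with 45180 and 47759 CPM. Of the labelled genes, Mir10a at rank 1 and Mir221 at rank 108 belong to the endothelial and vascular list described further on. Other members of that list lie nearer to Mir126a, among them Mir322 at rank 9 and Mir130a at rank 12.

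Each of the genes next to Mir126a in abundance lay on the same side of it in both libraries. Mir126a was below Mir10b, a miRNA of the Hoxd cluster, by 0.62 ± 0.082 on the log2 scale (SD, n = 2). Mir10b stood at 72257 CPM (replicate 1) and 70503 CPM (replicate 2). Against Mir335, encoded in the imprinted gene Mest, the log2 difference was -0.98 ± 0.14, and against Mir10a of the Hoxb cluster it was -1.63 ± 0.077. Mir335 varied more between libraries than Mir126a did, with 83348 CPM in replicate 1 and 100914 CPM in replicate 2.

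Below Mir126a the steps were smaller. Mir126a exceeded Mirlet7i, a let-7 family gene with 40718 CPM in replicate 1 and 40565 CPM in replicate 2, by 0.19 ± 0.060 on the log2 scale, or 1.14-fold. It exceeded Mir99a by 0.42 ± 0.12 and Mirlet7g by 0.45 ± 0.20. For all 6 of these neighbours the difference had the same sign in both libraries and its mean was larger than its SD. With n = 2 the second of these implies the first. The direction of each mean was largely set in advance, because the neighbours were chosen by mean CPM in these same libraries. Among the neighbours themselves, Mir99a and Mirlet7g changed places between the libraries, with Mirlet7g above Mir99a in replicate 1 and below it in replicate 2. With 2 samples no test over samples was made, and differences between miRNAs in capture were not tested.

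By likeness of level, measured as the Euclidean distance between pairs of log2(CPM + 1) over the 2 libraries, the nearest genes were Mirlet7i (0.28), Mir99a (0.60), Mir17 (0.67) and Mirlet7g (0.67). Mir17 belongs to the miR-17 cluster, associated with proliferating progenitor cells, and had 33338 CPM in replicate 1 and 33700 CPM in replicate 2. With 2 libraries of 1 tissue this measure ranks genes by level and says little about a shared pattern.

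The mature RNAs of the genes directly above and below Mir126a are shown with their seeds in capitals, for comparison with the seed of miR-126a-3p.
miR-10b-5p: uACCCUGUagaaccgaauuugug
miR-10b-3p: cAGAUUCGauucuaggggaaua
let-7i-5p: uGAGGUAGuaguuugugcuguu
let-7i-3p: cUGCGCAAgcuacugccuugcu

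None of these seeds equals that of miR-126a-3p. Mir10b lies on chromosome 2, as Mir126a does, and Mirlet7i on chromosome 10.

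Of the detected genes, 166 (48.1%) lie within a protein-coding gene on the same strand. Mir126a ranked 3 among them, after Mir335 in Mest and Mir10b in Hoxd3 and Hoxd4, and ahead of Mirlet7g in Wdr82. Its part of their counts was 8.72% (replicate 1) and 9.07% (replicate 2). On chromosome 2, where 25 of 224 miRNA genes were detected, it came next after Mir10b, with 28.8% of that chromosome's counts for replicate 1 and 29.7% for replicate 2. It had no abundant neighbour. Within 1 Mb lay only Mir6996, with 5 counts in each replicate, Gm24049, with 2 and 0 counts, and Mir7578, with no count.

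Nearly all reads at the locus came from the Mir126a strand. Opposite-strand counts numbered 32 against 235051 on the strand of the gene in replicate 1, and 17 against 175943 in replicate 2. The opposite strand thus made up 0.0136% of the counts of both strands in replicate 1 (95% exact interval 0.00931 to 0.0192). For replicate 2 it was 0.00966% (0.00563 to 0.0155), and the libraries averaged 0.0116% ± 0.00279 (SD, n = 2). The share did not differ detectably between the libraries at this depth (ratio of replicate 1 to replicate 2 1.41, two-sided Fisher's exact test p = 0.312, which treats reads as independent). Over all miRNA genes the opposite strand made up 1.93% (replicate 1) and 1.80% (replicate 2), and the Mir126a row gave 0.0312% and 0.0252% of those opposite-strand counts. A few rows carry these pooled values: 11 genes that lie opposite another miRNA gene, described further on, held 99.9% of the opposite-strand counts of replicate 1 and 99.8% of those of replicate 2. Without them the opposite strand made up 0.00288% (replicate 1) and 0.00290% (replicate 2), values that still include the 32 and 17 opposite-strand counts of Mir126a.

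Small as it was, the opposite-strand share of Mir126a was above that of every other gene among the 10 most abundant. The other 9 genes together had 5 opposite-strand counts of 2611786 in replicate 1, or 0.000191% (0.0000622 to 0.000447), and 3 of 1902322 in replicate 2, or 0.000158% (0.0000325 to 0.000461). The share of Mir126a was 71.1 times that of these genes in replicate 1 and 61.3 times in replicate 2. None of the 9 has an annotated miRNA gene on the other strand, whereas Mir126a has Mir126b. Genes that do have one are compared further on. Mir10a had 3 and 2 opposite-strand counts, Mir335 had 1 and 1, Mirlet7i had 1 and 0, and the remaining 6 had none in either library. Among the 9 genes the highest upper bound was 0.00323%, for Mir322 in replicate 2, below the lower bounds of Mir126a in both libraries. This comparison was chosen after the values were seen, and the counts do not say whether the 49 opposite-strand reads of Mir126a carry the sequence of miR-126b.

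**Figure D3:**
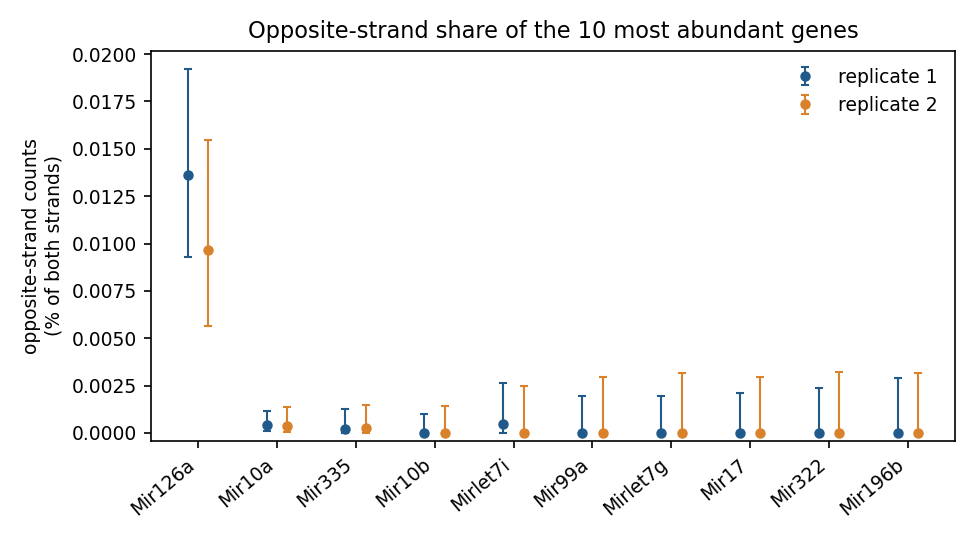
Opposite-strand counts as a percentage of counts on both strands for the 10 most abundant miRNA genes, with 95% exact Clopper-Pearson intervals, for each replicate. Mir126a stands at 0.0136% and 0.00966%, and every interval of the other 9 genes ends below those of Mir126a begin.

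Among the 184 genes with at least 1000 counts on both strands and both libraries together, 153 (83.2%) had no opposite-strand count. Mir126a was 1 of 31 that did. A lower share was found in 159 genes and a higher one in 24, which include the 10 genes read mostly on the opposite strand. Directly below it lay Mir324 at 0.00806%, Mir130a at 0.000901% and Mir30e at 0.000539%, and directly above it Mir205 at 0.0167%, Mir182 at 0.0187% and Mir195a at 0.0201%. These neighbours rest on 1, 2 or 8 opposite-strand counts each, so their order is uncertain. The 49 opposite-strand counts of Mir126a were the highest number among the 174 genes read mostly on their own strand, but not the highest share. The next number was 46, for Mir203, a miRNA of stratified epithelium, which had 25 in replicate 1 and 21 in replicate 2. Mir203 had only 8856 and 5884 own-strand counts, so its share was higher than that of Mir126a. The highest share in this group was 0.352%, for Mir222. No miRNA gene is annotated opposite Mir203 or Mir222.

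In the annotation 32 of the counted genes overlap a miRNA gene on the other strand, as Mir126a overlaps Mir126b. Of these, 21 had at least 100 counts on either strand, and for none of the 21 does the partner have a row of counts. They fell into groups by the strand that was read. Mir126a was 1 of 10 read mostly on their own strand, where opposite-strand shares ran from 0% to 3.54%. In that group Mir30e had 0.000539%, Mir374b 0.0792%, Mir337 0.181%, Mir24-2 0.294%, Mir338 1.06% and Mir219a-1 3.54%. Mir3071, Mir451a and Mir539 had no opposite-strand count, which in replicate 1 left exact upper 95% bounds of 1.08%, 0.616% and 3.05%, all far above the share of Mir126a.

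The other 11 rows were read mostly on the opposite strand, the reverse of Mir126a. Mir142b, opposite the leukocyte gene Mir142, had 1684 opposite-strand counts in replicate 1 and 1151 in replicate 2, with none on its own strand. Mir497b, opposite Mir497, and Mir299b, opposite Mir299a, had shares of 99.9% each. Gm25301 and Gm24083, opposite Mir378a and Mir191, were read on the opposite strand alone, as were Gm24321, Gm25252, Gm25750 and Gm25927. Gm24111, opposite Mirlet7f-1, had a share of 99.9%. In Mir3074-1, opposite Mir24-1, the strands were nearly even, with a share of 54.0%.

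Other miRNAs with described roles in endothelial cells and vessels were set beside Mir126a. The list has 18 genes, Mir126a and Mir126b among them, of which 17 had a row and all 17 were detected. All shares, medians and counts given for the list, here and below, include Mir126a itself. Mir126b had no row. Mir126a was second in the list after Mir10a and held 17.1% of its counts in replicate 1 and 17.8% in replicate 2. The list as a whole held 26.6% ± 0.201 of counts (SD, n = 2), and 12.2% without Mir10a. The median member stood at 459 CPM, against 114 CPM over all detected genes, and 8 of the 17 were at 1000 CPM or more, against 88 of all 345 detected genes (25.5%). Most members are also made by other cell types, so the list does not measure endothelial cells. It was chosen with earlier results of these data known, so its high levels are a description and not independent evidence.

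The abundant members after Mir126a were Mir322 at 30535 ± 675 CPM and Mir130a at 25183 ± 1740 CPM (SD, n = 2, as for the values that follow). Mir322, the mouse counterpart of human miR-424, was 1.52-fold below Mir126a, and Mir130a, described as angiogenic in human endothelial cells, was 1.85-fold below it. Mir23a, whose cluster acts on Sprouty and semaphorin genes in angiogenesis, had 8416 ± 328 CPM. Its cluster partners were far lower, with Mir27a at 224 ± 33.1 CPM and Mir24-2 at 114 ± 4.27 CPM. Counts of Mir24-2 are uncertain, because 21 of its bases also occur in another miRNA gene.

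Mir92-1, the Mir92a-1 of the miR-17 cluster, whose miR-92a limits vessel growth in mice, had 4578 ± 579 CPM, and its counts are uncertain in the same way as those of Mir24-2. Mir296, raised by growth factors in human endothelial cells, had 4043 ± 768 CPM, and Mir503, next to Mir322 on the X chromosome, had 1097 ± 99.7 CPM. Mir221 and Mir222, which act on Kit in endothelial cells, were at 459 ± 51.6 and 288 ± 13.4 CPM, so that Mir126a was 101 and 161 times as abundant as these genes. Mir132, which acts on a Ras GTPase-activating protein, had 399 ± 61.2 CPM, and hypoxia-induced Mir210 had 287 ± 20.1 CPM. Mir31 had 140 ± 18.6 CPM. Mir218-2 and Mir218-1, in introns of Slit3 and Slit2, were lowest at 44.4 ± 10.6 and 18.0 ± 0.220 CPM, and both are uncertain because of sequence shared with another miRNA gene.

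**Figure D4:**
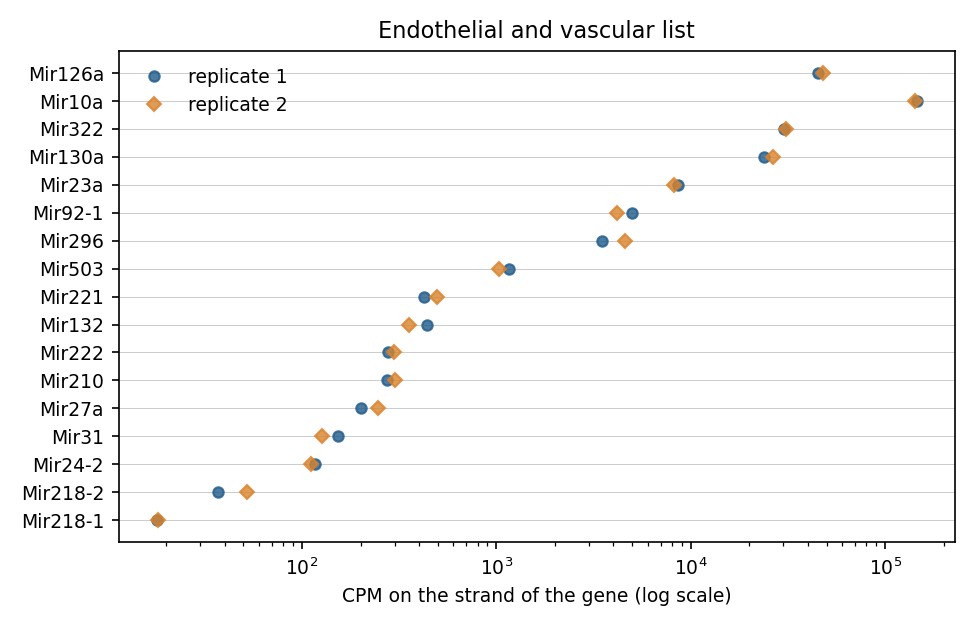
CPM on the strand of the gene (log scale) of the 17 counted genes of the endothelial and vascular list, with 1 symbol for each replicate. Mir126a, at 45180 and 47759 CPM, is drawn in the top row and had a lower level than Mir10a and a higher one than the other 15 genes, which reach down to Mir218-1 at 17.9 and 18.2 CPM.

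Marker miRNAs of other cell types of the kidney were lower than Mir126a alone. The stroma and smooth muscle list held 2.53% ± 0.0421 of counts over 6 genes, led by Mir143 at 18645 ± 1069 CPM and Mir214 at 6006 ± 667 CPM. Mir126a was 1.81 times the sum of this list in replicate 1 and 1.86 times in replicate 2. In this list 3 of the 6 genes (Mir199a-1, Mir199a-2 and Mir199b) share sequence with other miRNA genes, so some of their reads may be among the unassigned multimapping ones and the sum may be too low. The epithelial miR-200 list held 2.51% ± 0.234 over 5 genes, led by Mir429 at 14037 ± 1789 CPM and Mir200c at 5062 ± 308 CPM. Mir126a was 1.69 times its sum in replicate 1 and 2.03 times in replicate 2. Ratios between genes also carry any difference in how well each miRNA is captured, which was not tested.

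Marker miRNAs of blood cells and non-renal cell types were far lower in assigned counts. The leukocyte list, which includes Mir155 at 336 ± 36.0 CPM and Mir223 at 267 ± 1.86 CPM, stood at 0.0735% (replicate 1) and 0.0734% (replicate 2), with 4 of its 5 counted genes detected, so that Mir126a was 61.5 times its sum in replicate 1 and 65.1 times in replicate 2. The defining leukocyte gene Mir142 has no row, and that sum leaves it out. With the opposite-strand counts of Mir142b, where Mir142 lies, added to the sum, Mir126a was 42.7 times the list in replicate 1 and 45.6 times in replicate 2. The erythroid list, with Mir451a at 81.9 ± 46.4 CPM and Mir144 at 31.4 ± 10.6 CPM, held 0.0161% in replicate 1 and 0.00776% in replicate 2, with Mir126a 280 times and 615 times its sum. The hepatocyte miRNA Mir122 had 56.3 CPM in replicate 1 and 1074 CPM in replicate 2. Striated muscle genes, 1 of 5 detected, held 0.00647% ± 0.00143, most of it Mir206 at 62.9 ± 13.3 CPM, and neuronal genes, 2 of 7 detected, held 0.00982% ± 0.000953, led by Mir128-1 at 83.1 ± 12.4 and Mir128-2 at 13.5 ± 2.46 CPM. Of the defining markers, Mir1a-1, Mir133a-1, Mir133a-2, Mir124a-1, Mir124a-2 and Mir124a-3 were at 0 in both libraries, and each shares sequence with another gene, so its reads may be among those that mapped to several places. The same holds for every other counted neuronal gene, Mir128-1 and Mir128-2 included, and for Mir133b, Mir486 and Mir146. The sums of the neuronal, striated muscle, erythroid and leukocyte lists may therefore be too low.

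Mir126a differed little between the replicates. Replicate 1 over replicate 2, its log2 ratio was -0.086 (95% exact interval -0.095 to -0.077), so it was 1.06-fold higher in replicate 2. With so many counts the difference passed the two-sided exact binomial test between these libraries (adjusted p = 4.70e-78 over 345 detected genes). So did 185 of the 345 (53.6%), 92 of them (26.7%) lower in replicate 1 as Mir126a was, so passing does not set it apart. With a further minimum of 1 on the absolute log2 ratio, 11 genes (3.19%) were called, and Mir126a was not among them. The test takes counting error only and compares libraries, not conditions. With an assumed coefficient of variation of 0.2 between replicates, edgeR's exact test gave Mir126a an adjusted p of 1.00 and called 2 genes in all.

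The size of the ratio was small among detected genes, with 79 of the 345 (22.9%) closer to 0 and a median absolute log2 ratio of 0.24. Among the 25 most abundant genes, Mir126a was the tenth closest to 0, in a range from -0.37 for Mir196b to 0.63 for Mir351. In the endothelial and vascular list 6 of 17 genes passed the same test as higher in replicate 1 and 8 as lower, with 3 that did not pass, beside 53.6% of all detected genes that passed and 26.7% that passed as lower. Passing was more frequent among well-counted genes, with 24 of the 25 most abundant genes. Of genes with at least 100 counts in each replicate, 73.1% passed. The list is more abundant than the median detected gene, so its number of passes is not particular to it. The median log2 ratio of the list was -0.051, against -0.024 over all detected genes. Members ranged from -0.50 for Mir218-2 to 0.31 for Mir132, with Mir221 at -0.24 and Mir222 at -0.10, where Mir222 did not pass (adjusted p = 0.138, exact binomial test).

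Some markers of other cell types differed between the libraries by more than Mir126a did. On the same log2 scale the summed erythroid counts stood at 1.05 and Mir122 at -4.26, and the epithelial sum at 0.18. Smaller than Mir126a in size were the stromal sum at -0.040 and the leukocyte sum at -0.0038. Their part in the ratio of Mir126a was not tested.

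**Figure D5:**
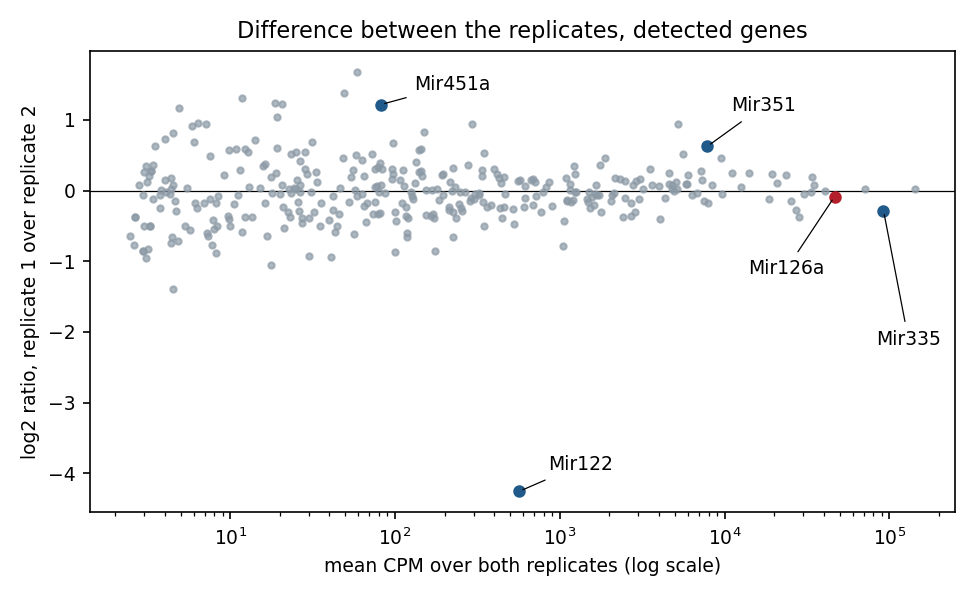
Log2 ratio of replicate 1 over replicate 2 against mean CPM (log scale) for the 345 detected miRNA genes. Mir126a, in red, lies near 0 at -0.086, while Mir122 at -4.26 and Mir451a at 1.22 lie far from it.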

How the data were processed

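The authors deposited, for each of the 2 libraries, raw, unnormalized read counts for each miRNA gene in 3 columns (strands combined, sense, opposite). Per the labels and the deposited descriptions, the assembly was mm10 with GENCODE M4 gene models. Aligner and counter: not given in the sources used here. The 4 tallies that name no gene were left out of totals. Unmapped reads were 16.8% of reads in replicate 1 and 14.1% in replicate 2, and reads on no feature 4.06% and 2.91%.

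Symbols, positions and hosts came from GENCODE M21, which matched 1894 of 1973 identifiers, and the 79 unmatched identifiers reached at most 1 count. Sequences came from RefSeq on GRCm38.p6. With 1 group, no quasi-likelihood test could be run. Replicates were compared with an exact binomial test (two-sided), where TMM factors from edgeR scaled the totals, and Benjamini-Hochberg adjustment over genes with at least 10 counts in each replicate. Log2 differences between genes and distances used a pseudocount of 1 CPM, and log2 ratios of replicate 1 over replicate 2 used none. RefSeq synonyms paired the list name Mir92a-1 with the symbol Mir92-1. Mir126a and the lists were chosen with earlier results of these data known. The named genes were the 3 neighbours on either side in mean CPM, the 4 nearest in level, the vascular list, the 2 highest detected genes of each other list, the 3 neighbours on either side in opposite-strand share, genes opposite another miRNA gene, and genes within 1 Mb. Mir203, Mir351, Mir196b and the genes next in the order of hosts were chosen once values had been seen. Other settings tried were scalings (DESeq2 size factors, totals), count minimums, unstranded counts, other denominators, another pseudocount, an edgeR exact test and each replicate alone. Software: ViennaRNA 2.7.2 (RNAfold), edgeR 4.0.16 and DESeq2 1.42.0 under R 4.3.3, and scipy 1.17.1 under Python 3.11.15.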

Additional observations from a re-analysis of the deposited data

How the results depend on the processing

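The rank of Mir126a was 4 with unstranded counts and in each library alone. Its share of 4.65% came to 4.56% with unstranded counts, 2.42% of all reads of the libraries and 5.43% without Mir10a in the total. Each library alone gave 4.52% to 4.78%. Its log2 ratio of replicate 1 over replicate 2 stayed negative under every alternative run, from -0.093 with unstranded counts to -0.051 with DESeq2 size factors. It no longer passed in edgeR's exact test with an assumed coefficient of variation of 0.2, where the ratio was -0.086 (adjusted p = 1.00) and 2 genes were called in place of 185, and 2 in place of the 11 at a log2 ratio of at least 1. That last number was 4 with a minimum of 100 counts, which tests fewer genes, and 16 with no minimum. The opposite-strand share of Mir126a was 0.00966% to 0.0136% in each library alone. The 6 differences from neighbours in rank kept their sign under every alternative run, the smallest being 0.15 to 0.24 against Mirlet7i in each library alone. Because the neighbours were chosen by level in these same libraries, this says little. The vascular list held 26.1% with unstranded counts and 12.2% without Mir10a, and 26.5% to 26.8% in each library alone. In a comparison added after seeing the data, counting Mir142 from the opposite strand of Mir142b put Mir126a at 42.7 and 45.6 times the leukocyte list, in place of 61.5 and 65.1 times. No paired analysis was possible because there is 1 group. Counts in 2 libraries limit the precision of each SD, and reads that map to several places could not be assigned.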
